A study of Mus musculus with 18 samples.

Results

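Fast signalling in the brain runs through neurotransmitter receptors, and 56 genes of this class were measured on whole-genome mouse arrays in cerebellar progenitors and tumours. The genes were taken by symbol from the ionotropic and metabotropic glutamate, GABA-A, GABA-B, glycine, nicotinic and muscarinic receptor families, and are 56 of 19057 genes with a single symbol. Each gene was represented by the probe with the highest mean log2 value over the 18 arrays. Of the 56 genes, 12 had a mean above level 5 on the log2 scale, a level near the background of these arrays, and the comparisons were made among them. They were Gria1, Gria2 and Gria3 of the AMPA receptors, Grik2 and Grik5 of the kainate receptors, Grin2b and Grin3a of the NMDA receptors, the metabotropic receptor gene Grm4, the glycine receptor gene Glra2, the nicotinic genes Chrna3 and Chrnb2, and Grid2ip. The last encodes delphilin, a postsynaptic scaffold and not a receptor subunit, and is included because its symbol follows the same pattern.

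Granule neuron progenitors (GNPs) are the dividing cells of the outer cerebellar layer that become granule neurons, and from which Sonic hedgehog medulloblastoma (MB) arises. GNPs were purified at postnatal day 6, by density gradient and pre-plating, from 4 genotypes with 4 arrays each: Ptch+/-, NdpKO, NdpKO;Ptch+/- and wild type. Ptch+/- mice carry 1 functional copy of the gene for the receptor that restrains hedgehog signalling, and NdpKO mice lack Norrin, an X-linked ligand of the Frizzled4 receptor, through a lacZ cassette in every cell of the body. One MB of an NdpKO;Ptch+/- mouse and 1 MB of a Ptch+/- mouse, both dissected whole from symptomatic animals, were also profiled. The Ptch+/- and wild-type GNPs are labelled as C57Bl/6, the NdpKO line was kept on a mixed background. NdpKO and NdpKO;Ptch+/- animals were males, while the other genotypes could be of either sex, and no sex was assigned to an array here. The study states that controls came from the same breeding cohort, but any difference in sex or background cannot be told apart from Norrin loss. Each GNP array is a separate animal, per the study.

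Glutamate receptors of the AMPA, kainate and NMDA classes are cation channels of 4 subunits, in which the subunits present set the calcium entry and the kinetics. GABA-A and glycine receptors are anion channels, which can depolarize immature neurons, while metabotropic, GABA-B and muscarinic receptors act through G proteins. Migrating granule cells are known to use NMDA receptors before they form synapses, and mature granule cells add Grin2a, Grin2c, Gabra6 and Gabrd.

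All 18 arrays had the same median of 4.13, and of the 45281 probes, 23.0% to 23.9% reached level 5 on any one array. Granule lineage markers averaged 10.2 to 10.7 on the GNP arrays, although Atoh1, a defining GNP gene, was at background on its probe (at most 4.12). Markers of other cells were present as well, among them Gad1 and Slc32a1 of GABAergic interneurons. In such bulk samples, fewer cells of a type and less RNA per cell cannot be told apart. Ptch1 averaged 7.83 ± 0.14 in Ptch+/- GNPs and 8.63 ± 0.06 in wild-type GNPs (SD, n = 4 each). Ndp lay at background on its probe in every genotype, which checks nothing. For 1 array titled NdpKO;Ptch+/-, the source and genotype labels say NdpKO, and it was grouped by its title. On that array Prm1 read 9.92, against 9.79 to 10.66 on the other 7 arrays of Ptch+/- genotypes and 4.11 to 4.12 on NdpKO arrays. Ptch1 read 7.80 on it, against 7.63 to 8.23 and 8.65 to 8.97 in the same order, so that both genes lay with the Ptch+/- genotypes, as its title has it. The first principal component of the GNP arrays held 43.6% of the variance of 1500 probes. Ptch+/- arrays lay between 12.6 and 17.7 on it, and wild-type arrays between -23.1 and -14.4. NdpKO replicates 1 to 3 lay on the Ptch+/- side, and NdpKO;Ptch+/- replicates 2 to 4 on the wild-type side. NdpKO replicate 4 and NdpKO;Ptch+/- replicate 1 stood on the opposite side from the other 3 arrays of their groups. Whether the receptor genes follow this component was not tested.

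The promoters of 3 genes on which the results turn are shown for orientation. They are Grik2, which was called higher in Ptch+/- GNPs, and Gria2 and Glra2, which were called higher and lower in tumours. Each sequence runs from 250 bases before to 50 bases after the RefSeq transcript start on GRCm38.p6, and all 3 genes lie on the minus strand. Capitals mark the E-box CANNTG, to which basic helix-loop-helix proteins such as Neurod1 bind, or the TATA box TATAAA, read on both strands.
Grik2, chr10:49788705-49789004: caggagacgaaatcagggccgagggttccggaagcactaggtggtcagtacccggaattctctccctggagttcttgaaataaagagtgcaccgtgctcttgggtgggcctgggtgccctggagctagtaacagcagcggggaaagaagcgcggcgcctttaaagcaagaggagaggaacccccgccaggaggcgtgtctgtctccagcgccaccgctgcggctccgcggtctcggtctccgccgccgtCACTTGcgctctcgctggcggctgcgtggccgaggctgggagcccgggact
Gria2, chr3:80802786-80803085: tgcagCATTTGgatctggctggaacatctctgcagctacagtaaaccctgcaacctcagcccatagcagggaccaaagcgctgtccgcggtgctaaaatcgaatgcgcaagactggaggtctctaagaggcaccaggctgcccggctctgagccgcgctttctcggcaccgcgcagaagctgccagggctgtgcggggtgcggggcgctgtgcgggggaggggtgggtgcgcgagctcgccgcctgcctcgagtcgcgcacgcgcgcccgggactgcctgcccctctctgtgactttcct
Glra2, chrX:165327344-165327643: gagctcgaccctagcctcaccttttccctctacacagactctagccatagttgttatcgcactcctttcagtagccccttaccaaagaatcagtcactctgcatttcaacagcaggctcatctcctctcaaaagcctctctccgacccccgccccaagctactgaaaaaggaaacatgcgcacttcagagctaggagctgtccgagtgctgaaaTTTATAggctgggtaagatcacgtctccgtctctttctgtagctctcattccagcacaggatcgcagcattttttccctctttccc
The Grik2 and Gria2 promoters held 26 CpG dinucleotides each, with a GC content of 64.7% and 65.7%, against a median of 7 CpG and 52.7% over all 32851 promoters. The Glra2 promoter held 9 CpG dinucleotides at 50.3% GC. The E-box matched once in Grik2 and once in Gria2 and was present in 72.3% of all promoters, so such a match is common. The TATA box matched once in Glra2, on the strand opposite to the gene, and in 13.6% of all promoters. Entries were present for 7 of the 12 genes, and none of the 7 held the letters ACCACCC (4.61% of all promoters) or CAGCACC (7.14%), which are parts of the sites bound by Gli proteins and by the neuronal repressor Rest.

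Among the families, the glutamate receptor genes were measured above background most often. Above level 5 lay 3 of 4 AMPA, 2 of 6 NMDA, 2 of 5 kainate and 1 of 6 metabotropic glutamate receptor genes, against 1 of 5 glycine, 2 of 13 nicotinic, 0 of 9 GABA-A, 0 of 2 GABA-B and 0 of 5 muscarinic receptor genes. Whether a probe reads above background also depends on the probe. All 12 genes had a mean above 5 in each GNP genotype, the lowest being Grik5 at 5.05 ± 0.23 in wild-type GNPs (SD, n = 4). Over the 18 arrays Grik5, at 5.39, was just inside the level, and Gabbr1, a GABA-B subunit, was just outside it at 4.85.

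The genes of mature granule cells were at background. On the 16 GNP arrays, Grin2a and Grin2c, the NMDA subunits of older neurons, did not exceed 4.13. Gabra6 and Gabrd, which form the tonic GABA-A receptors of adult granule cells, did not exceed 4.19, and the beta subunit gene of the glycine receptor, Glrb, lay between 4.11 and 4.15. The AMPA subunit gene Gria4 and the muscle nicotinic subunit gene Chrnb1 stayed below level 5 on every array. Of the 44 genes not above level 5, 41 stayed below it on every array, and Gabbr1, Grm5 and Grik1 passed it on some. Gabbr1 exceeded level 5 on 2 of 4 Ptch+/- arrays, 4 of 4 NdpKO arrays, 1 of 4 NdpKO;Ptch+/- arrays and 0 of 4 wild-type arrays, and in no tumour.

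**Figure D1:**
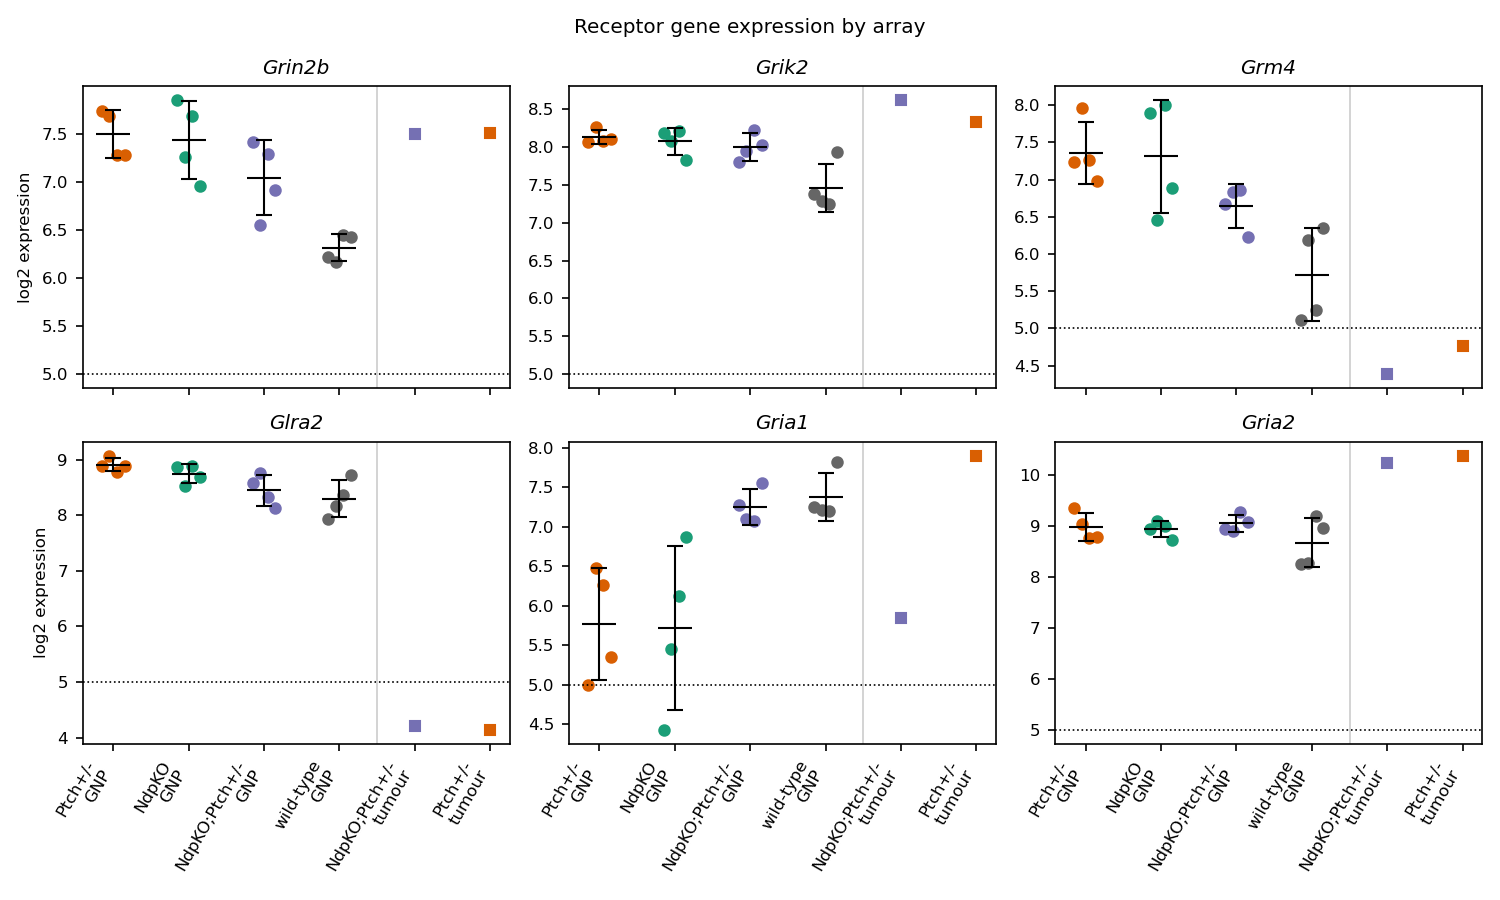
Log2 expression of 6 receptor genes on each array, with GNP genotypes as circles (bars: mean ± SD, n = 4), tumours as squares (1 array each) and the dotted line at level 5. Grin2b and Grik2 had lower means in wild-type GNPs than in each mutant genotype, Gria1 was lowest in Ptch+/- and NdpKO GNPs, and Grm4 and Glra2 lay below level 5 in both tumours.

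To find which receptor genes differ with the loss of 1 Ptch copy, Ptch+/- and wild-type GNPs were compared. Grin2b, the NMDA subunit of immature neurons, and Grik2, a kainate receptor subunit, rose. These were 2 of the 12 genes, with 0 called lower, against 1.09% of all probes and 3.59% of the probes above level 5 called in either direction (1.99% higher and 1.6% lower). The median difference of the 12 genes was 0.52, against 0.028 over all probes above level 5. In 8 of the 12 genes the arrays of the groups did not overlap, with 6 higher and 2 lower, while 21.9% of the probes above level 5 did not overlap (11.6% higher and 10.3% lower).

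Grin2b read 7.74, 7.69, 7.28 and 7.28 in Ptch+/- GNPs and 6.22, 6.17, 6.44 and 6.43 in wild-type GNPs. Every Ptch+/- array lay above every wild-type array. The difference was 1.18 ± 0.22 on the log2 scale (SE), or 2.27-fold, with an adjusted p of 0.029 in limma. It rests on 1 probe, because the other Grin2b probes were at background (means of 4.11 and 4.10, differences of -0.005 and 0.003). The call was lost without Ptch+/- replicate 1, 2 or 3 or wild-type replicate 1, 2 or 3, with adjusted p between 0.0529 and 0.0854.

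Grik2 read 8.07, 8.27, 8.08 and 8.11 in Ptch+/- GNPs and 7.38, 7.28, 7.25 and 7.93 in wild-type GNPs. The groups did not overlap, although wild-type replicate 4 came near the Ptch+/- arrays. The difference was 0.67 ± 0.14, or 1.59-fold, with an adjusted p of 0.048 in limma. It too rests on 1 probe, because the other Grik2 probe was at background (mean of 4.18, difference of -0.005). The call held without wild-type replicate 4 (adjusted p = 0.00565), NdpKO replicate 4 or NdpKO;Ptch+/- replicate 1, and was lost without any other single array, with adjusted p between 0.0510 and 0.129.

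The next genes by unadjusted p missed the threshold. Grm4, a presynaptic metabotropic receptor of granule cells, read 7.24, 7.96, 7.26 and 6.98 in Ptch+/- GNPs and 5.12, 6.18, 5.25 and 6.35 in wild-type GNPs. Its groups were apart, with a difference of 1.63 ± 0.38 and an adjusted p of 0.065 in limma. The other Grm4 probe was at background (mean of 4.12, difference of -0.008). Glra2, a glycine receptor subunit of fetal and newborn neurons, read 8.89, 9.07, 8.78 and 8.89 in Ptch+/- GNPs and 7.94, 8.17, 8.37 and 8.73 in wild-type GNPs, also without overlap (0.61 ± 0.17, adjusted p = 0.11 in limma). Gria1, an AMPA subunit, went the other way. It read 5.004, 6.48, 6.26 and 5.36 in Ptch+/- GNPs and 7.25, 7.22, 7.20 and 7.83 in wild-type GNPs, a difference of -1.60 ± 0.45 with an adjusted p of 0.12 in limma. Glra2 passed the threshold without wild-type replicate 4 (adjusted p = 0.0437).

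Chrnb2, the beta-2 subunit of neuronal nicotinic receptors, gave different answers on its probes. The probe with the highest mean read 6.998, 6.32, 6.67 and 6.42 in Ptch+/- GNPs and 4.53, 6.26, 6.23 and 6.15 in wild-type GNPs, with wild-type replicate 1 far below the rest (0.81 ± 0.41, adjusted p = 0.45 in limma). Its other probe above level 5, described after its values were seen, read 6.69, 6.76, 6.76 and 6.72 in Ptch+/- GNPs and 4.86, 5.61, 5.27 and 5.33 in wild-type GNPs. On that probe the groups were wide apart, and the difference of 1.47 ± 0.24 was called (adjusted p = 0.020 in limma). It is not among the 2 called genes above. Chrna3, the alpha-3 subunit, was lower in Ptch+/- GNPs with no overlap but missed the threshold (-0.29 ± 0.14, adjusted p = 0.43 in limma).

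Markers of other cells moved with these differences. The mean over the genes of the astrocyte and Bergmann glia list above level 5 (15 of 18) lay between 7.98 and 8.35 on Ptch+/- arrays and between 8.66 and 9.24 on wild-type arrays. That of the microglia list (3 of 11) lay between 6.70 and 7.77 on Ptch+/- arrays and between 7.83 and 8.68 on wild-type arrays. Both lists were lower on every Ptch+/- array than on any wild-type array. Of the 13 granule lineage genes above level 5, 10 were positive and 3 were called higher, with a median of 0.19. Over all probes above level 5, 53.8% were positive and 1.99% called higher, with a median of 0.028. The 8 endothelial genes above level 5 had a median of -0.72, and the 5 of GABAergic interneurons and Golgi cells one of -0.60. The part of these cells in the receptor differences was not tested.

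**Figure D2:**
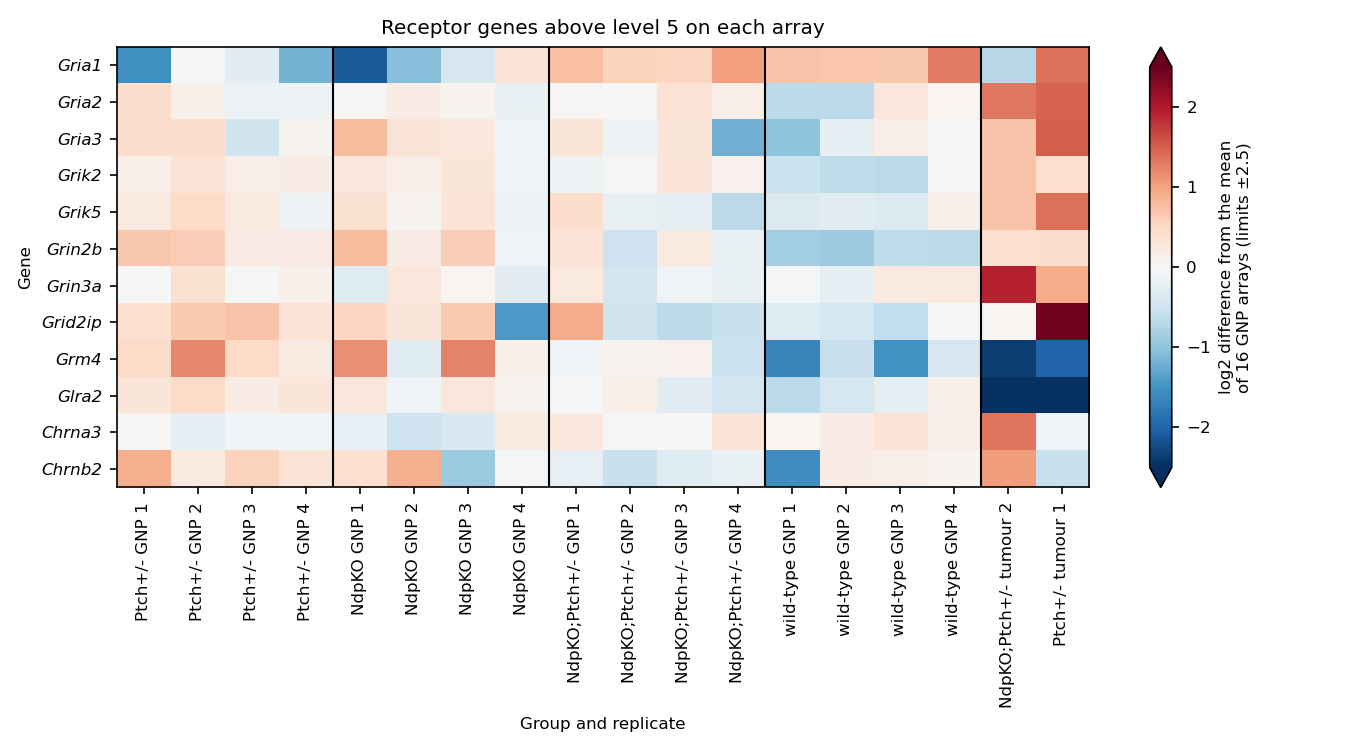
Log2 difference of each of the 12 genes (rows) from its mean over the 16 GNP arrays, on each array (columns, by group and replicate), with colours limited at 2.5 in either direction. Gria1 had its lowest values on Ptch+/- and NdpKO arrays among GNPs, Grin2b and Grm4 were low on wild-type arrays, and Glra2 was far below the GNP mean in both tumours.

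To find which receptor genes differ between mice without and with Norrin, NdpKO and wild-type GNPs were compared. Differences in sex or background between these groups cannot be told apart from Norrin loss. None of the 12 genes was called by limma, while 6 had an unadjusted p below 0.05, against 24.5% of the probes above level 5. After adjustment, 0.307% of all probes and 1.04% of those above level 5 were called. The median difference was 0.38, against 0.022 over all probes above level 5. The groups were apart in 3 of the 12 genes, against 10.7% of the probes above level 5. Because this comparison shares its wild-type arrays with that of Ptch+/- GNPs, likeness between them is not an independent result.

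Grin2b read 7.86, 7.26, 7.68 and 6.96 in NdpKO GNPs, against 6.22, 6.17, 6.44 and 6.43 in wild-type GNPs. The arrays did not overlap, and the difference of 1.13 ± 0.22 had an adjusted p of 0.055 in limma. It passed the threshold without NdpKO replicate 4 (adjusted p = 0.0244) or without NdpKO;Ptch+/- replicate 1 or 2. Grm4 read 7.90, 6.46, 8.01 and 6.88 in NdpKO GNPs, against 5.12, 6.18, 5.25 and 6.35 in wild-type GNPs, again without overlap (1.59 ± 0.38, adjusted p = 0.12 in limma).

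Gria1 was spread widely in the knockout. It read 4.43, 5.46, 6.12 and 6.87 in NdpKO GNPs, against 7.25, 7.22, 7.20 and 7.83 in wild-type GNPs, with every NdpKO array the lower. The difference was -1.65 ± 0.45 with an adjusted p of 0.16 in limma, and passed the threshold without NdpKO replicate 4 (-2.04, adjusted p = 0.0474). Grik2 (0.62 ± 0.14, adjusted p = 0.10 in limma) and Chrna3 (-0.41 ± 0.14, adjusted p = 0.29 in limma) overlapped. Grik2 was called without wild-type replicate 4 (adjusted p = 0.0133) and Chrna3 without NdpKO replicate 4 (adjusted p = 0.0469).

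Markers of other cells moved here too. The astrocyte and Bergmann glia list averaged 7.70 to 8.64 on NdpKO arrays and 8.66 to 9.24 on wild-type arrays, and the microglia list 6.19 to 7.09 on NdpKO arrays and 7.83 to 8.68 on wild-type arrays. Both lists were lower on every NdpKO array than on any wild-type array. Of the 13 granule lineage genes above level 5, 12 were positive and 0 were called, with a median of 0.32. Over all probes above level 5, 53.7% were positive. The 8 endothelial genes above level 5 had a median of -0.76, against 0.022 over all probes above level 5. The part of these cells in the receptor differences was not tested.

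To find which receptor genes differ without Norrin in Ptch+/- mice, NdpKO;Ptch+/- GNPs were compared with Ptch+/- GNPs. The same limits of sex and background hold here. None of the 12 genes was called by limma, while 2 had an unadjusted p below 0.05, against 19.0% of the probes above level 5. After adjustment, 0.0155% of all probes and 0.0276% of those above level 5 were called. Gria1 read 7.28, 7.10, 7.07 and 7.56 in NdpKO;Ptch+/- GNPs, against 5.004, 6.48, 6.26 and 5.36 in Ptch+/- GNPs. The double mutants were higher on every array, by 1.47 ± 0.45 or 2.78-fold, with an adjusted p of 0.36 in limma. Glra2 (-0.46 ± 0.17, adjusted p = 0.44 in limma), Grm4 (-0.71 ± 0.38, adjusted p = 0.65 in limma) and Chrnb2 (-0.83 ± 0.41, adjusted p = 0.61 in limma) were lower on every NdpKO;Ptch+/- array, in a comparison where 8.9% of the probes above level 5 did not overlap. The second Chrnb2 probe was also lower on every NdpKO;Ptch+/- array (-1.22 ± 0.24, adjusted p = 0.16 in limma). Grin2b differed by -0.45 ± 0.22 (adjusted p = 0.60 in limma) and overlapped. The 13 granule lineage genes above level 5 had a median of -0.18 and the 8 endothelial genes one of 0.72, against -0.016 over all probes above level 5. The part of these cells in the receptor differences was not tested.

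Against NdpKO and wild-type GNPs, the double mutants had no called receptor gene either. The share of all probes called was 0.00442% against NdpKO GNPs and 0.0508% against wild-type GNPs, or 0.0184% and 0.138% of those above level 5, and 2 and 3 of the 12 genes had an unadjusted p below 0.05, as had 9.0005% and 13.4% of the probes above level 5. Gria1 was higher on every NdpKO;Ptch+/- array than on any NdpKO array (1.53 ± 0.45, adjusted p = 0.87 in limma), where 2.52% of the probes above level 5 did not overlap. Against wild-type GNPs its difference was -0.12 ± 0.45, with overlapping arrays. Grin2b read 7.42, 6.55, 7.29 and 6.92 in NdpKO;Ptch+/- GNPs, against 6.22, 6.17, 6.44 and 6.43 in wild-type GNPs, and was the only one of the 12 genes whose arrays were apart there, against 5.89% of the probes above level 5 (0.73 ± 0.22, adjusted p = 0.45 in limma). Grik2 differed by 0.54 ± 0.14 (adjusted p = 0.34 in limma) and was called only when wild-type replicate 4 was left out (adjusted p = 0.0325).

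The interaction tests whether the double mutant departs from the sum of both single differences. For Grin2b it was -1.58 ± 0.31 on the log2 scale, with an adjusted p of 0.048 in limma, so that the double mutants lay below that sum. This was 1 of the 12 genes, against 0.495% of all probes and 1.68% of the probes above level 5 (0.958% in this direction). Gria1 had the opposite sign, at 3.13 ± 0.64, with an adjusted p of 0.056 in limma. Grm4 (-2.30 ± 0.54, adjusted p = 0.080 in limma), Glra2 (-0.90 ± 0.24, adjusted p = 0.10 in limma) and Grik2 (-0.75 ± 0.20, adjusted p = 0.12 in limma) followed, and 7 of the 12 genes had an unadjusted p below 0.05, against 32.0% of the probes above level 5. The Grin2b call held without NdpKO replicate 4 (adjusted p = 0.0146) or NdpKO;Ptch+/- replicate 1 (adjusted p = 0.0192) and was lost without any other single array, with adjusted p between 0.0634 and 0.113. Once the array whose labels disagree was moved to the NdpKO group, against its Prm1 and Ptch1 levels, it was -1.24 with an adjusted p of 0.233 in limma. The second Chrnb2 probe gave an interaction of -2.23 ± 0.34 (adjusted p = 0.026 in limma), and the one with the highest mean gave -1.21 ± 0.58 (adjusted p = 0.40 in limma). Marker lists moved in the same term. Of the 13 granule lineage genes above level 5, 3 were called lower (Cntn2, Zic2 and Zic4), with a median of -0.46. The astrocyte and Bergmann glia list had positive values in 14 of 15 genes above level 5, with 1 called (Sox9) and a median of 1.13. The 8 endothelial genes above level 5 had a median of 1.49. Over all probes above level 5, 45.7% were positive and the median was -0.043. The part of the listed cells in the receptor interactions was not tested.

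**Figure D3:**
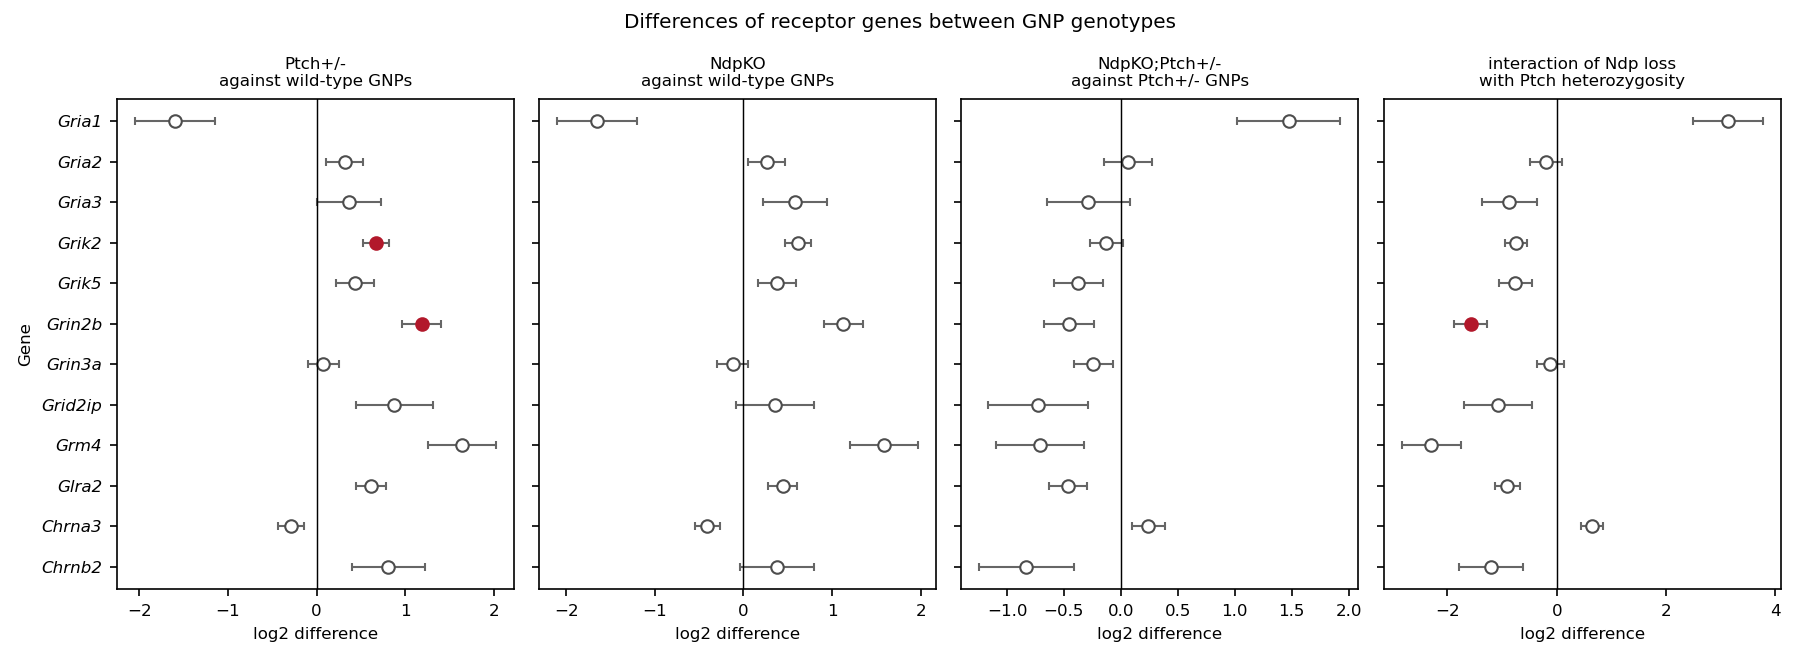
Log2 difference ± SE of the 12 genes in 3 comparisons of GNP genotypes and in the interaction, each panel on its own scale, with called genes filled in red (adjusted p below 0.05) and the others open. Grin2b and Grik2 were called in Ptch+/- GNPs and Grin2b in the interaction, and Gria1 lay opposite to Grin2b in all 4 panels.

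Grid2ip had 1 array far from the other 3 in both genotypes that lack Norrin. It read 7.57, 7.83, 7.87 and 7.52 in Ptch+/- GNPs, 7.68, 7.47, 7.83 and 5.73 in NdpKO GNPs, 8.10, 6.67, 6.51 and 6.62 in NdpKO;Ptch+/- GNPs, and 6.85, 6.73, 6.55 and 7.16 in wild-type GNPs. The lowest NdpKO array and the highest NdpKO;Ptch+/- array were those that stood apart on the first principal component.

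The proteins that accompany the receptors were followed through lists of auxiliary subunits, scaffolds, nicotinic chaperones, and transmitter transporters and enzymes. Among glutamate receptor scaffolds, Shank3, which links glutamate receptors to the postsynaptic actin network, rose. It read 6.11, 5.82, 6.07 and 5.42 in Ptch+/- GNPs and 4.71, 4.57, 4.80 and 4.92 in wild-type GNPs (1.10 ± 0.23, adjusted p = 0.047 in limma), so every wild-type array was near background. Its interaction was -1.81 ± 0.33 with an adjusted p of 0.044 in limma. All 10 scaffold genes above level 5 had positive differences in Ptch+/- against wild-type GNPs, with a median of 0.37, and 1 of the 10, Shank3, was called. Because every wild-type array of Shank3 lay below level 5, the gene is among the 10 only through arrays of other groups. Its place in this count is therefore not independent of the difference tested. Over the probes above level 5, 53.8% were positive, the median was 0.028 and 3.59% were called. None of the auxiliary subunits, inhibitory scaffolds, nicotinic chaperones or transport and synthesis genes was called by limma in a comparison of GNPs. The number with an unadjusted p below 0.05 in Ptch+/- against wild-type GNPs was 4 of 15, 4 of 9, 1 of 4 and 5 of 20 in that order, against 13.2% of all probes and 31.0% of those above level 5.

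Comparing the 2 MBs with the 8 GNP arrays of their genotypes asks which receptor genes differ in the tumour, with genotype as a covariate. Gria2, Grin3a and Grik5 rose and Glra2 and Grm4 fell, 5 of the 12 genes. The median difference of the 12 genes was 0.52, against -0.10 over all probes above level 5. In this comparison 37.9% of the probes above level 5 (15.2% higher and 22.7% lower) and 14.7% of all probes were called, so the count is near that of other measured genes. The arrays were apart in 7 of the 12 genes, 5 higher and 2 lower, against 47.2% of the probes above level 5 (19% higher and 28.2% lower). The tumours came from symptomatic mice but are labelled with the age of the GNPs, so no tumour age was used. Whole tissue and purified cells cannot be told apart from the tumour itself in this comparison, nor can any difference in age.

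Glra2 was at background in tumours. It read 4.22 in the NdpKO;Ptch+/- tumour and 4.14 in the Ptch+/- tumour, against 8.59, 8.76, 8.32 and 8.13 in NdpKO;Ptch+/- GNPs and 8.89, 9.07, 8.78 and 8.89 in Ptch+/- GNPs. Taken against level 5, it was at least 12.8-fold lower (-4.50 ± 0.18, adjusted p = 1.95e-06 in limma). Grm4 read 4.39 in the NdpKO;Ptch+/- tumour and 4.77 in the Ptch+/- tumour, against a range of 6.23 to 7.96 with a median of 6.92 on the 8 GNP arrays. It was at least 4.01-fold lower (-2.43 ± 0.26, adjusted p = 0.00057 in limma). Both genes kept this call with any single array left out.

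Gria2, Grin3a and Grik5 were the genes called higher. Gria2, the AMPA subunit that makes the channel impermeable to calcium once edited, read 10.24 in the NdpKO;Ptch+/- tumour and 10.38 in the Ptch+/- tumour, against 8.77 to 9.36 with a median of 8.99 on the GNP arrays. It was 2.44-fold higher (1.29 ± 0.16, adjusted p = 0.0013 in limma), and all 3 of its probes had tumour levels above every GNP array. Grin3a, an NMDA subunit that lowers calcium entry, read 10.50 and 9.50 in the same tumours, against 8.13 to 8.95 with a median of 8.58 on the GNP arrays (1.41 ± 0.28, adjusted p = 0.012 in limma). Without the NdpKO;Ptch+/- tumour its difference was 0.79, with an adjusted p of 0.105 in limma. Grik5, a kainate subunit that needs a partner such as Grik2, read 5.99 and 6.64, against 4.60 to 5.77 with a median of 5.32 on the GNP arrays (1.02 ± 0.26, adjusted p = 0.040 in limma), and kept its call only without NdpKO;Ptch+/- replicate 1 or 4 of the GNPs. Without either tumour, or without any other single GNP array, its adjusted p lay between 0.0511 and 0.278.

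Grik2 (8.63 and 8.34 in the NdpKO;Ptch+/- and Ptch+/- tumours) and Gria3 (6.84 and 7.64) lay above every GNP array of their genotypes but were not called, with differences of 0.42 ± 0.13 and 1.15 ± 0.43 and adjusted p of 0.068 and 0.13 in limma. Grin2b, at 7.50 and 7.51, overlapped the GNP arrays (0.24 ± 0.24, adjusted p = 0.66 in limma). Of the 44 genes not above level 5, Gria4, Gabrg3 and Gabbr2 were called, but their levels stayed within background, the highest being 4.60 for Gria4 in the NdpKO;Ptch+/- tumour.

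Of the 8 inhibitory receptor scaffold and trafficking genes above level 5, 1 was called higher (Trak1, a trafficking adaptor) and 3 lower (Kctd12, Gabarap and Trak2), against 15.2% and 22.7% of the probes above level 5. Single genes of inhibitory transmission were at background in tumours. Slc32a1, the vesicular GABA and glycine transporter, read 4.12 in the NdpKO;Ptch+/- tumour and 4.24 in the Ptch+/- tumour, and lay between 9.69 and 10.57 on the GNP arrays of those genotypes (adjusted p = 4.6e-07 in limma). Taken against level 5, it was at least 36.3-fold lower. Gad1, which makes GABA, was at least 15.1-fold lower (adjusted p = 3.7e-05 in limma), and Kctd12, an auxiliary subunit of GABA-B receptors, at least 4.395-fold lower (adjusted p = 5.1e-05 in limma). The list of GABAergic interneuron and Golgi cell markers, with 5 of 9 genes above level 5, averaged 4.12 in the NdpKO;Ptch+/- tumour and 4.24 in the Ptch+/- tumour, and 8.09 to 9.20 over all GNP arrays. The microglia list ran the other way, at 9.99 and 11.02 in the tumours and 6.57 to 7.77 on the GNP arrays of their genotypes. The granule lineage list was lower in both tumours, at 9.80 and 9.01 in the same order, against 10.27 to 10.57 on those GNP arrays. So were the oligodendrocyte list (6.97 and 6.86, against 9.08 to 9.89) and the endothelial list (6.00 and 5.66, against 6.64 to 8.655). The astrocyte and Bergmann glia list, at 8.26 and 8.97, was not lower than all of those arrays, which lay between 7.98 and 8.73. The part of these cells in the receptor differences was not tested.

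Excitatory partners were called in both directions. The AMPA receptor auxiliary subunit gene Gsg1l (1.20 ± 0.12) and the AMPA receptor scaffold Grip1 (1.30 ± 0.17) rose, as did Cacng4, another auxiliary subunit gene, which was below level 5 on the GNP arrays of these genotypes and at least 2.11-fold higher in tumours. The AMPA-binding neuronal pentraxin Nptx2 (-1.70 ± 0.28) and the nicotinic receptor modulator Lynx1 (-2.35 ± 0.28) fell. The scaffold Dlg2 and the vesicular glutamate transporter Slc17a7 were below level 5 in both tumours and at least 4.09-fold and 2.21-fold lower. Of the 10 glutamate receptor scaffolds above level 5, 2 were called higher and 3 lower. Of the 10 transport and synthesis genes above level 5, 2 were called higher and 4 lower. The share of probes above level 5 called was 15.2% higher and 22.7% lower. The transport genes called higher were Slc1a2, a glial glutamate transporter, and Slc12a2, which loads neurons with chloride.

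**Figure D4:**
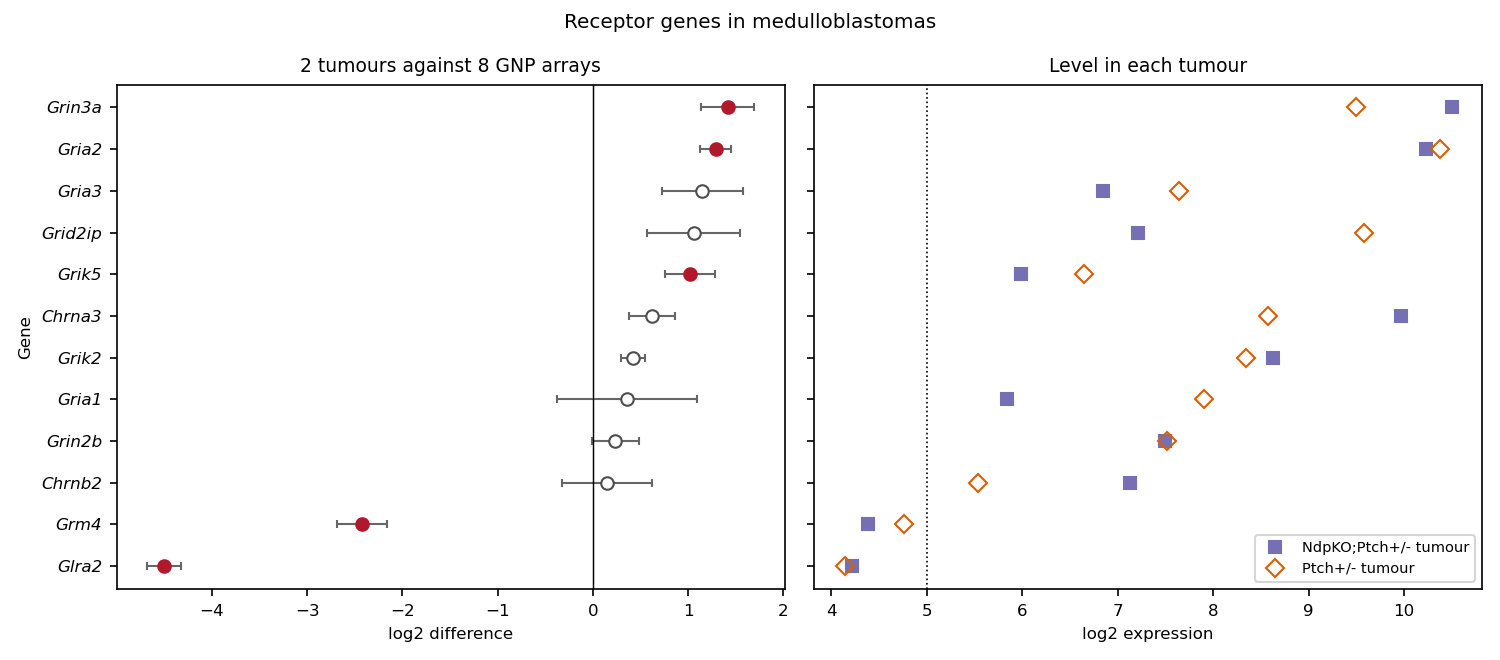
Left, log2 difference ± SE of the 12 genes between the 2 tumours and the 8 GNP arrays of their genotypes, with called genes filled in red. Right, log2 level of each gene in the NdpKO;Ptch+/- tumour (squares) and the Ptch+/- tumour (diamonds), with level 5 dotted. Glra2 and Grm4 were at least 12.8-fold and 4.01-fold lower, and the tumours differed most in Grid2ip and Gria1.

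The tumours were single samples, so the NdpKO;Ptch+/- tumour and the Ptch+/- tumour could be described but not tested against each other. Of the 12 genes, 5 differed by more than 1 on the log2 scale, 3 higher and 2 lower in the NdpKO;Ptch+/- tumour, while 10.6% of the probes above level 5 and 3.52% of all probes differed by that much. Chrnb2 read 7.13 in the NdpKO;Ptch+/- tumour and 5.54 in the Ptch+/- tumour, 3.01-fold higher. Its partner Chrna3, with which it can form a nicotinic receptor, read 9.97 and 8.57 in that order of tumours. Grin3a was 2.00-fold higher. Gria1 read 5.85 in the NdpKO;Ptch+/- tumour and 7.90 in the Ptch+/- tumour, a difference of -2.05, and Grid2ip 7.21 and 9.58, a difference of -2.37. The difference of Gria1 between double-mutant and Ptch+/- GNPs had the other sign, at 1.47, and those of Chrnb2 and Grin3a were -0.83 and -0.24. The levels of Grin2b, Gria2 and Glra2 differed by at most 0.15 between the tumours.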

How the data were processed

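Total RNA of 16 GNP samples and 2 tumours was hybridized to Illumina arrays. The authors corrected the background and quantile-normalized the arrays with the neqc function of limma, and their log2 values were used as deposited. Since every array then has the same distribution, a change common to most probes cannot be seen. Level 5 was taken as a limit near background. A fold against a group below it was computed against level 5.

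Genes were found by symbol in the array's annotation (115 probes for 56 genes). All 56 symbols equalled the RefSeq symbol of their Entrez identifier. The probe with the highest mean over the 18 arrays stood for a gene. The members, level and lists were chosen with earlier results of these data known.

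Linear models were fitted to all 45281 probes in limma 3.58.1 under R 4.3.3, with 1 mean per GNP genotype and contrasts. Tumours were compared with the GNPs of their genotypes, with genotype as a covariate. Tests were two-sided, and Benjamini-Hochberg adjusted p below 0.05 over all probes was called. The p-values treat arrays as separate animals. The procedure was tested on simulated data. Named genes were all called members, otherwise the 5 lowest unadjusted p per comparison, the 5 highest and 5 lowest in each tumour comparison, a fixed set of granule cell receptor genes, called companion genes and at most 2 more a list. The list level of a marker list is the mean over its genes above level 5. Replicate numbers did not pair the arrays: the 24 same-numbered pairs had a median correlation of -0.041. Alternatives were a replicate block, the other group for the array with disagreeing labels, an intensity trend, array weights, other probe rules, other levels, fewer groups and leaving out arrays.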

Additional observations from a re-analysis of the deposited data

Results flagged for a closer look

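In 4 of 48 combinations of gene and GNP group, 1 array lay far from the other 3, where chance gives about 1 in 20. Grid2ip was lowest in NdpKO replicate 4, at 5.73 against 7.47 to 7.83 in the other NdpKO arrays. It was highest in NdpKO;Ptch+/- replicate 1, at 8.10 against 6.51 to 6.67 in the others of that group. Gria1 was highest in wild-type replicate 4, at 7.83 against 7.20 to 7.25. Chrnb2 was lowest in wild-type replicate 1, at 4.53 against 6.15 to 6.26.

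Among receptor and companion genes at their probes with the highest mean, the interaction term was called for 2, namely Grin2b (-1.58) and Shank3 (-1.81). It was also called for the marker genes Cntn2, Zic2, Zic4 and Sox9 and for the second Chrnb2 probe (-2.23). For Grin2b and Shank3, the means lay above those of wild-type GNPs in each single mutant, and the double mutant lay below the sum of the single differences.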

How the results depend on the processing

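None of the alternatives reversed a result, and the number of called receptor genes moved with several of them. Replicate number as a block, although the numbers do not pair the arrays, gave 1 called gene in place of 2 for Ptch+/- against wild-type GNPs, 0 in place of 1 for the interaction and 3 in place of 5 for the tumours, and changed no other count by over 1.5 times. Of the 16 GNP arrays, 4 correlated best with their own number. Counting the array of disagreeing labels as NdpKO, against its Prm1 and Ptch1 levels, gave 1 for Ptch+/- against wild-type GNPs and 0 for the interaction. An intensity trend gave 1 for NdpKO against wild-type GNPs and 2 for the interaction, and array weights gave 2 for the interaction. Leaving out probes below level 5 leaves fewer to adjust for and, as the models were fitted anew, can also change the shared estimate of the spread. This alternative gave 5 for Ptch+/- against wild-type GNPs, 4 for NdpKO against wild-type GNPs, 5 for the interaction and 8 for the tumours. The mean of all probes of a gene gave 4, 1 and 4 for the first 3 of these and 3 in place of 5 for the difference between tumours. Leaving out NdpKO replicate 4 and NdpKO;Ptch+/- replicate 1 together, an alternative chosen after seeing the data, gave 5 for NdpKO against wild-type GNPs, 1 each for NdpKO;Ptch+/- against Ptch+/- and against NdpKO GNPs (both Grid2ip, of which these arrays are the extremes), and 6 for the interaction. Leaving out each array in turn gave 0 to 3 for Ptch+/- against wild-type GNPs, 0 to 3 for NdpKO against wild-type GNPs, 0 to 1 for NdpKO;Ptch+/- against wild-type GNPs, 0 to 4 for the interaction, 4 to 7 for the tumours and 0 for the others. The cause of these changes was not tested. Over all alternatives the call of Grin2b in Ptch+/- GNPs held in 18 of 24 and that of Grik2 in 7 of 24, and that of the Grin2b interaction in 7 of 23. In tumours those of Glra2, Grm4 and Gria2 held in 18 of 18, that of Grin3a in 16 and that of Grik5 in 7. The 12 genes had 4 arrays per GNP group and 1 tumour of each genotype, which limits precision, and levels near 5 understate a difference.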
